A study of Homo sapiens with 6 samples.

Results

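The genes described here are 7 members of the aryl hydrocarbon receptor pathway, listed by symbol and found by Ensembl identifier among the 60675 genes of the count files: the receptor gene AHR, its negative regulators AHRR and TIPARP, and the target genes CYP1B1, CYP1A1, ALDH3A1 and SERPINB2. Of these, 5 had enough reads to be tested, out of 15261 genes tested in all. The cells were MDA-MB-231, an established human breast cancer line that lacks the oestrogen receptor, the progesterone receptor and ERBB2 amplification. In 1 group, 3 wells received vitamin C as sodium ascorbate at 100 μM for 3 days in medium that was renewed every day, and in the control group 3 wells received none. All wells held the same unmodified cell line in the same medium, so 1 line is the whole model. RNA was depleted of ribosomal RNA and sequenced from both ends. Reads counted in genes numbered 17664345 to 22373591 in control libraries and 13434130 to 19553914 in vitamin C libraries, and unmapped read pairs made up 24.2% to 34.4% of control and 24.7% to 49.5% of vitamin C libraries. The sources used here do not tell whether the wells came from 1 experiment or from several, and p-values reflect only how far these wells spread, which may be technical.

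AHR is a ligand-activated transcription factor of the bHLH-PAS family. Without ligand it waits in the cytosol bound to HSP90 and co-chaperones, and once a planar aromatic compound such as a dioxin or a tryptophan metabolite binds, it enters the nucleus, pairs with ARNT and binds DNA at a short core written GCGTG. CYP1A1 and CYP1B1 encode cytochrome P450 monooxygenases that oxidize polycyclic hydrocarbons, and CYP1B1 also hydroxylates oestradiol and is the family member usually found in breast and other tissues outside the liver. AHRR is a repressor that competes with AHR for ARNT, and TIPARP is a mono-ADP-ribosyltransferase that is induced by AHR and modifies it. ALDH3A1 oxidizes aromatic and medium-chain aldehydes. SERPINB2 is an intracellular inhibitor of plasminogen activators that dioxin induces in several cell types.

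Because CYP1B1 carries the change described here, the primer pair that the study designed for its mRNA is shown, with no part in capitals. The CYP1B1 gene (ENSG00000138061) lies on the minus strand of GRCh38 at chr2:38066973-38109902. The forward primer matched exon 1 of 3 at chr2:38076054-38076073 and the reverse primer matched exon 2 at chr2:38075347-38075366, so that the product of 98 bases spans an intron.
CYP1B1 forward primer: ctcaccgacccccagtctca
CYP1B1 reverse primer: gtttagcggccaagggtcgt
Both primers matched 3 of the 7 GENCODE transcripts of CYP1B1 and both together matched a transcript of 0 other genes.

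The promoter windows below are shown because a GCGTG core is the letters AHR and ARNT are known to bind. They run from 250 bases before to 50 bases after the start site as RefSeq gives it on GRCh38.p14, they are written along the gene's own strand, and capitals mark GCGTG or its other-strand reading CACGC. They are the windows of CYP1A1 (chr15:74725479-74725778, minus strand), AHR (chr7:17298402-17298701, plus strand), TIPARP (chr3:156674340-156674639, plus strand, 1 of its 3 windows) and EREG (chr4:74364895-74365194, plus strand), an AHR target gene that also rose.
CYP1A1: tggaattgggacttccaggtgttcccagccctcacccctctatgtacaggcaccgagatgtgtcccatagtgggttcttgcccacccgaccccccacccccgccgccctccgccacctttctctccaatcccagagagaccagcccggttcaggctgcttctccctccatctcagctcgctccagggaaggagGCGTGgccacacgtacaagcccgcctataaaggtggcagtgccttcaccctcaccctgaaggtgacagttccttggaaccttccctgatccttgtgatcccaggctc
AHR: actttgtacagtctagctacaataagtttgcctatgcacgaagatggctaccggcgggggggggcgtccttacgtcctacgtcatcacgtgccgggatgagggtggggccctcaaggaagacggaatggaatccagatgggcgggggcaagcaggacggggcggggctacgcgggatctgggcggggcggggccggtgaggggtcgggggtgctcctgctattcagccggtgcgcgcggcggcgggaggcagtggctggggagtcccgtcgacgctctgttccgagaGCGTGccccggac
TIPARP: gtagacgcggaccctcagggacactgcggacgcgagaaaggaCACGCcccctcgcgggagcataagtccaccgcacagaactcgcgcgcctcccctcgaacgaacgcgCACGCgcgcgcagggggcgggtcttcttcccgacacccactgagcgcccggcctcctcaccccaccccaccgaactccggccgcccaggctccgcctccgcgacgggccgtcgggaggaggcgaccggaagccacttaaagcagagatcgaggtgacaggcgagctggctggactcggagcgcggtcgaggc
EREG: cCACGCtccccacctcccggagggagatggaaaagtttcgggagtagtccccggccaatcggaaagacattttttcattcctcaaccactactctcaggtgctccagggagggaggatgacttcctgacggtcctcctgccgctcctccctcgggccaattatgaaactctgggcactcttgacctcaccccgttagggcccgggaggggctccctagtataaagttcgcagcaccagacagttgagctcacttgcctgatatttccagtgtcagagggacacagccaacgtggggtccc
The core stood once in the CYP1A1 window, with its centre 55 bases before the start site, and once in the AHR window, 39 bases after it. The TIPARP window held it 2 times, 206 and 140 bases before the start, and the other 2 windows of TIPARP held 0. EREG had 1 core, 247 bases before the start. Of the windows not printed, the 2 of AHRR (chr5:321464-321763 and chr5:322360-322659, plus strand) held 1 and 2 cores and that of SERPINB2 held 0. RefSeq windows were matched for 5 of the 7 genes, and CYP1B1 and ALDH3A1 are named only. On either strand, GCGTG was present in 36.5% of 35116 windows and in at least 1 window of 40.6% of 27305 genes, so its presence in 4 of 5 genes is a description. The longer run TTGCGTG, which contains the core, was in none of these windows and in 1.16% of all windows. ACGTG, a core of HIF binding, differs from GCGTG in its opening letter, and neither run of letters tells which factor binds. ACGTG was present once in the CYP1A1 window, 46 bases before the start, once in the EREG window, and in 21.4% of all windows. In the AHR window it was read on both strands of a single CACGTG, 163 and 162 bases before the start.

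After vitamin C, CYP1B1 rose about 1.93-fold while the receptor gene and its feedback regulator TIPARP did not pass the test. Expression is given as CPM, TMM-scaled counts at a common depth for all libraries, and ± gives the SD over 3 wells. A difference is a log2 fold change, positive where vitamin C wells were higher, with its standard error (SE). Unless another tool is named, its p comes from the quasi-likelihood test of edgeR, adjusted by Benjamini and Hochberg's method over all 15261 genes, and a gene was called at an adjusted p under 0.05. CYP1B1 was the 1 member called, in a table in which 3.60% of genes were called higher, 3.48% lower and 7.08% in either direction. Among the 5 tested members, the wells of the groups did not overlap for CYP1B1, which was higher, and for TIPARP, which was lower by a small margin. Across all tested genes, 15.7% had every vitamin C well above every control well and 16.6% had every one below.

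CYP1B1 stood at 132, 116 and 117 CPM in control 1, 2 and 3. It stood at 233, 248 and 225 CPM in vitamin C 1, 2 and 3. The lowest treated well was far above the highest control well, and the spread within either group was small beside the gap. The group levels were 122 ± 9.20 CPM (SD, n = 3) and 235 ± 11.2 CPM (SD, n = 3). The log2 fold change was 0.95 (SE 0.08, 95% interval 0.78 to 1.12, edgeR adjusted p = 0.000254), and DESeq2, which called 10.1% of the 14126 genes it gave an adjusted p, gave an adjusted p of 6.19e-22. Leaving out any 1 of the 6 libraries kept the call, with log2 fold changes from 0.91 to 1.01 and edgeR adjusted p up to 0.00552. The exact two-sided permutation p over wells was 0.1, the smallest that 3 against 3 allows. Among the 10282 tested genes that averaged 100 counts or more, CYP1B1 ranked 25th by the size of its rise and 4th by p. Vitamin C 3 had a depth and a share of unmapped pairs within or near the control range (19553914 reads in genes and 24.7%), and its CYP1B1 level was 225 CPM. Unmapped pairs made up 40.7% of vitamin C 1 and 49.5% of vitamin C 2. The part of depth and mapping in the CYP1B1 difference was not tested. In a bulk sample, a change in the number of expressing cells and a change in RNA per cell cannot be told apart.

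Genes that share the CYP1B1 locus were read beside it, since no source used here states whether the counting used strand, and without it reads from overlapping genes on opposite strands cannot be told apart. The files set aside ambiguous reads on a line of their own. CYP1B1-AS1 (ENSG00000232973, chr2:38073447-38231651, plus strand), a long non-coding RNA that overlaps CYP1B1 in the antisense direction, had 51, 77 and 56 counts in control 1, 2 and 3 and 58, 73 and 89 counts in vitamin C 1, 2 and 3. Scaled for depth it went from 3.04 ± 0.337 to 4.68 ± 0.529 CPM (SD, n = 3 each), with no overlap between wells. Its log2 fold change was 0.62 (SE 0.17, edgeR adjusted p = 0.0521, DESeq2 adjusted p = 0.104), which missed the threshold, and edgeR without a filter on low counts gave an adjusted p of 0.0478. For every CYP1B1-AS1 read, control 1, 2 and 3 held 45.6, 34.0 and 42.0 CYP1B1 reads. Vitamin C 1, 2 and 3 held 54.3, 46.8 and 50.5, each above every control. RMDN2 (chr2:37923187-38067142, plus strand), a gene for a microtubule-associated protein whose end overlaps that of CYP1B1, was at 8.99 ± 0.590 and 11.9 ± 0.643 CPM (SD, n = 3 each), and its difference of 0.40 on the log2 scale missed the threshold (SE 0.12, edgeR adjusted p = 0.0573). RMDN2-AS1, on the same strand as CYP1B1, had 2 to 8 counts per library and was not tested. Among the other members, 6 further overlapping genes of the files (ENSG00000223867, BRWD1P3 and Metazoa_SRP over AHR, ENSG00000214278 and ENSG00000250645 over AHRR, and ENSG00000264785 over ALDH3A1) had 0 to 5 counts per library.

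**Figure D1:**
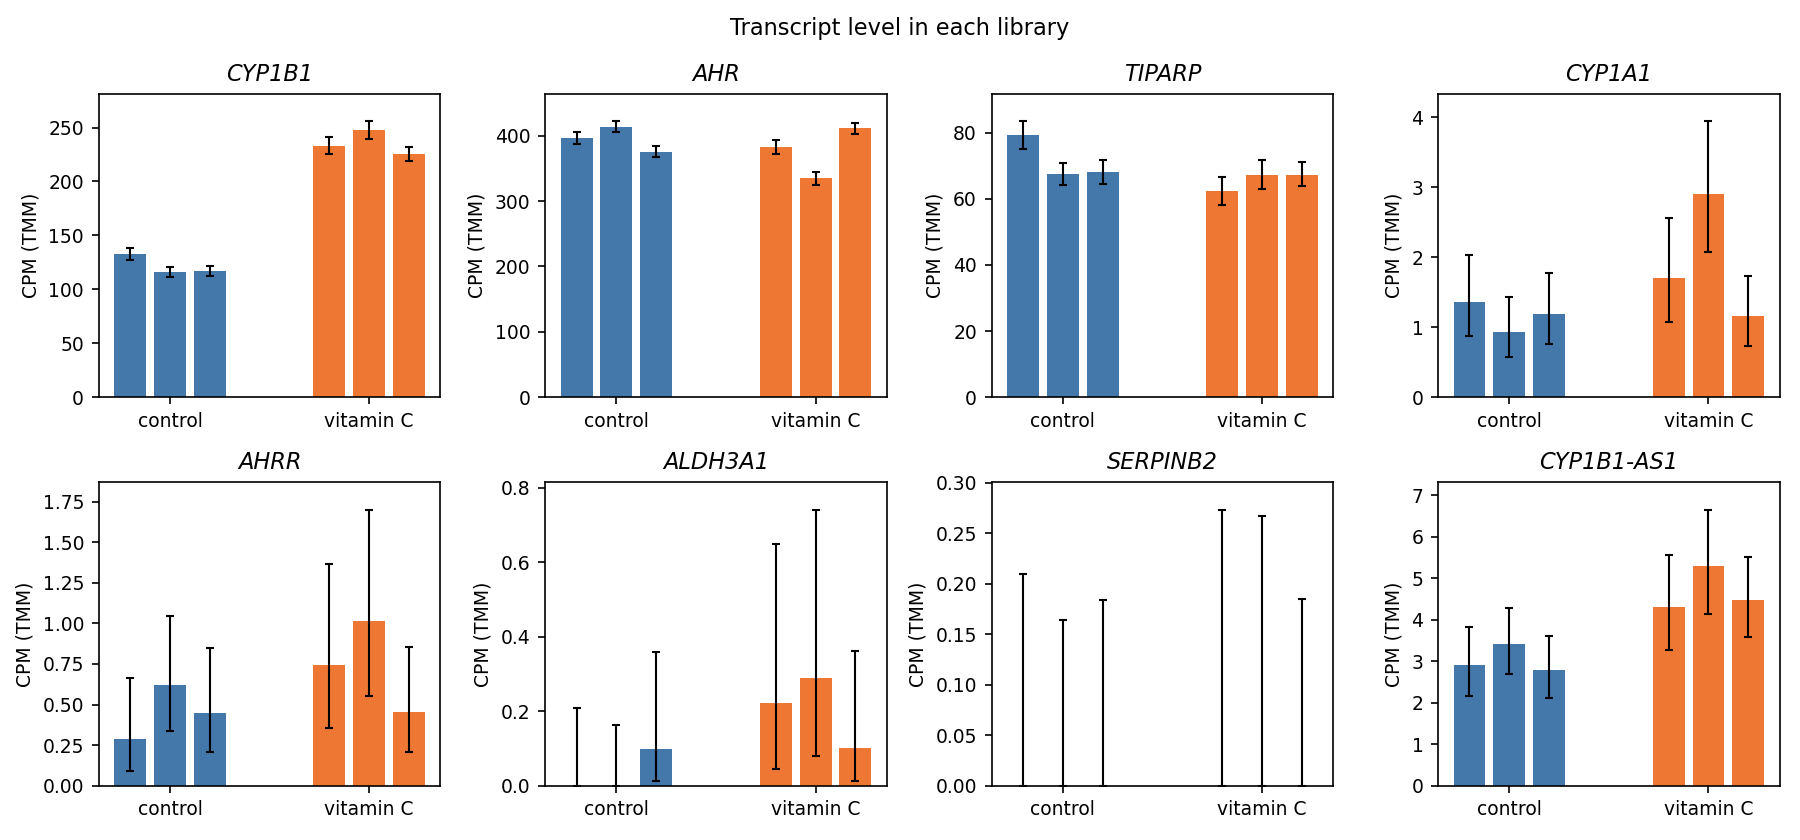
Bars give the level of each gene in each library as TMM-scaled CPM (y axis, from 0, a separate scale per gene), with 3 control libraries in blue and 3 vitamin C libraries in orange in the order 1 to 3, and whiskers give the exact 95% Poisson interval of the count, which covers counting error only. CYP1B1 sits at 116 to 132 CPM in control and 225 to 248 CPM in vitamin C libraries, AHR and TIPARP lie at about the same height in both groups, and CYP1A1, AHRR and ALDH3A1 rest on few reads.

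AHR itself (ENSG00000106546, chr7:16916359-17346152, plus strand) was abundant, and its level did not pass the test. Control 1, 2 and 3 had 397, 414 and 376 CPM, and vitamin C 1, 2 and 3 had 382, 335 and 411 CPM. Vitamin C 2 was the lowest of all wells, and the other two treated wells lay within the control range. The levels of 396 ± 19.1 and 376 ± 38.5 CPM (SD, n = 3 each) gave a log2 fold change of -0.07 (SE 0.09, 95% interval -0.26 to 0.12, edgeR adjusted p = 0.625, exact permutation p = 0.6). Without vitamin C 2 the log2 fold change was 0.00 (edgeR adjusted p = 0.988). For an antisense RNA that overlaps AHR (ENSG00000237773) the difference was -0.15 on the log2 scale (SE 0.28, edgeR adjusted p = 0.763).

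TIPARP (ENSG00000163659, chr3:156673235-156706770, plus strand) is usually among the readiest indicators of AHR activity. It was at 79.3, 67.4 and 68.0 CPM in control 1, 2 and 3 and at 62.3, 67.4 and 67.3 CPM in vitamin C 1, 2 and 3. Control 1 was the highest well, and the lowest control and the highest treated well were 67.4318 and 67.3679 CPM, so the groups were parted only by that margin. The log2 fold change was -0.12 (SE 0.08, 95% interval -0.31 to 0.06, edgeR adjusted p = 0.372, exact permutation p = 0.1), and without control 1 it was -0.05. For TIPARP-AS1, which overlaps its start on the other strand, the difference was -0.15 as well (SE 0.39, edgeR adjusted p = 0.831).

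AHRR (ENSG00000063438, chr5:321714-438291, plus strand) was barely detected. Control 1, 2 and 3 had 5, 14 and 9 counts, or 0.285, 0.621 and 0.448 CPM. Vitamin C 1, 2 and 3 had 10, 14 and 9 counts, or 0.741, 1.01 and 0.452 CPM. The wells overlapped. The log2 fold change was 0.61 (SE 0.42, 95% interval -0.31 to 1.53, edgeR adjusted p = 0.377, exact permutation p = 0.2), an interval that holds both no change and a change as large as that of CYP1B1. Transcripts that read through from PDCD6 into AHRR are annotated over the same exons and were not analysed here, so reads of the 2 could not be split.

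CYP1A1 (ENSG00000140465, chr15:74719542-74725536, minus strand), the P450 gene most often used as a readout of AHR, was low but detected in every library. Control 1, 2 and 3 had 24, 21 and 24 counts, and vitamin C 1, 2 and 3 had 23, 40 and 23. These are 1.37, 0.932 and 1.19 CPM in control wells and 1.70, 2.90 and 1.15 CPM in treated wells. Vitamin C 2 stood above all others, vitamin C 1 just above the controls, and vitamin C 3 within them. From 1.16 ± 0.219 to 1.92 ± 0.891 CPM (SD, n = 3 each), the log2 fold change was 0.69 (SE 0.34, 95% interval -0.05 to 1.43, edgeR adjusted p = 0.211, exact permutation p = 0.3). It moved to 0.27 (edgeR adjusted p = 0.65) without vitamin C 2 and to 0.99 (edgeR adjusted p = 0.0562) without vitamin C 3. A change of the size seen for CYP1B1 lies inside its interval, and so does no change.

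ALDH3A1 (ENSG00000108602, chr17:19737984-19748943, minus strand) fell under the filter on low counts. Control 1, 2 and 3 had 0, 0 and 2 counts, and vitamin C 1, 2 and 3 had 3, 4 and 2. Scaled for depth the wells did not overlap, by the margin between 0.0995 CPM in control 3 and 0.1004 CPM in vitamin C 3, both from 2 reads. Summed, 9 reads against 2 gave a rate 5.74 times as high in treated wells, with an exact 95% interval of 1.19 to 54.6 that covers counting error only. In the edgeR fit without the filter, which called 6.65% of 33769 genes, its adjusted p was 0.255. SERPINB2 (ENSG00000197632, chr18:63871692-63903888, plus strand) had 0 counts in all 6 libraries, which allows up to 0.134 to 0.223 CPM per library if 3 counts are taken as the limit.

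Per length, the receptor was the most abundant member and CYP1B1 came next. CPM were divided by the kilobases of merged exons, since levels of different genes can be compared only per length. AHR was at 49.1 ± 2.37 CPM per kilobase (SD, n = 3) in control cells, CYP1B1 at 20.2 ± 1.53, TIPARP at 14.9 ± 1.39, CYP1A1 at 0.346 ± 0.065, AHRR at 0.0476 ± 0.0178 and ALDH3A1 at 0.00855 ± 0.0148. In treated cells the order was the same. There AHR was at 46.7 ± 4.79 CPM per kilobase (SD, n = 3), CYP1B1 at 39.1 ± 1.86 and TIPARP at 13.7 ± 0.612. The wells of neighbours in this order did not overlap in control cells. In treated cells CYP1B1 (37.4 to 41.1 CPM per kilobase) came close to AHR (41.6 to 51.1), and AHRR (0.0476 to 0.107) overlapped ALDH3A1 (0.0259 to 0.0747). The CYP1B1 level per length was thus 0.412 ± 0.0358 of the AHR level in control cells and 0.845 ± 0.13 in treated cells (SD, n = 3 each).

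**Figure D2:**
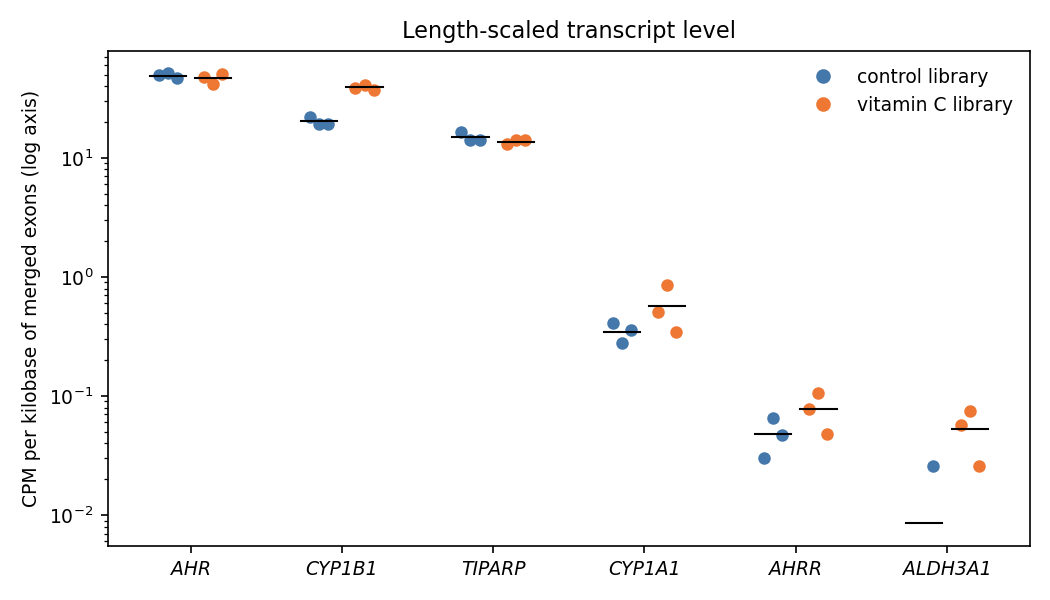
Points give the level of each gene in each library as CPM per kilobase of merged exons on a log axis, in blue for control and orange for vitamin C, and lines give the mean of 3 libraries. CYP1B1 moves from 20.2 to 39.1 toward AHR at 49.1 and 46.7 while the order of the genes stays, and the 2 control libraries with 0 ALDH3A1 reads and the gene SERPINB2, at 0 in every library, cannot be drawn on a log axis.

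Ratios of 2 genes within a library do not depend on depth or on scaling between libraries. For each AHR read, control 1, 2 and 3 held 0.334, 0.281 and 0.311 CYP1B1 reads, and vitamin C 1, 2 and 3 held 0.610, 0.739 and 0.548. Every treated library lay above every control library. For each TIPARP read there were 1.67, 1.72 and 1.72 CYP1B1 reads in control wells and 3.75, 3.67 and 3.35 in treated wells, again with no overlap. The CYP1B1 ratios to AHR, TIPARP and CYP1B1-AS1 each had an exact permutation p of 0.1, the smallest possible, and an adjusted p of 0.2 over the 6 ratios compared. The ratio of TIPARP to AHR was 0.181 ± 0.0184 in control and 0.176 ± 0.0219 in treated wells (SD, n = 3 each, exact permutation p = 0.9). CYP1B1 reads per CYP1A1 read, 107 ± 15.6 and 139 ± 55.0 (SD, n = 3 each), overlapped between groups (exact permutation p = 0.6).

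**Figure D3:**
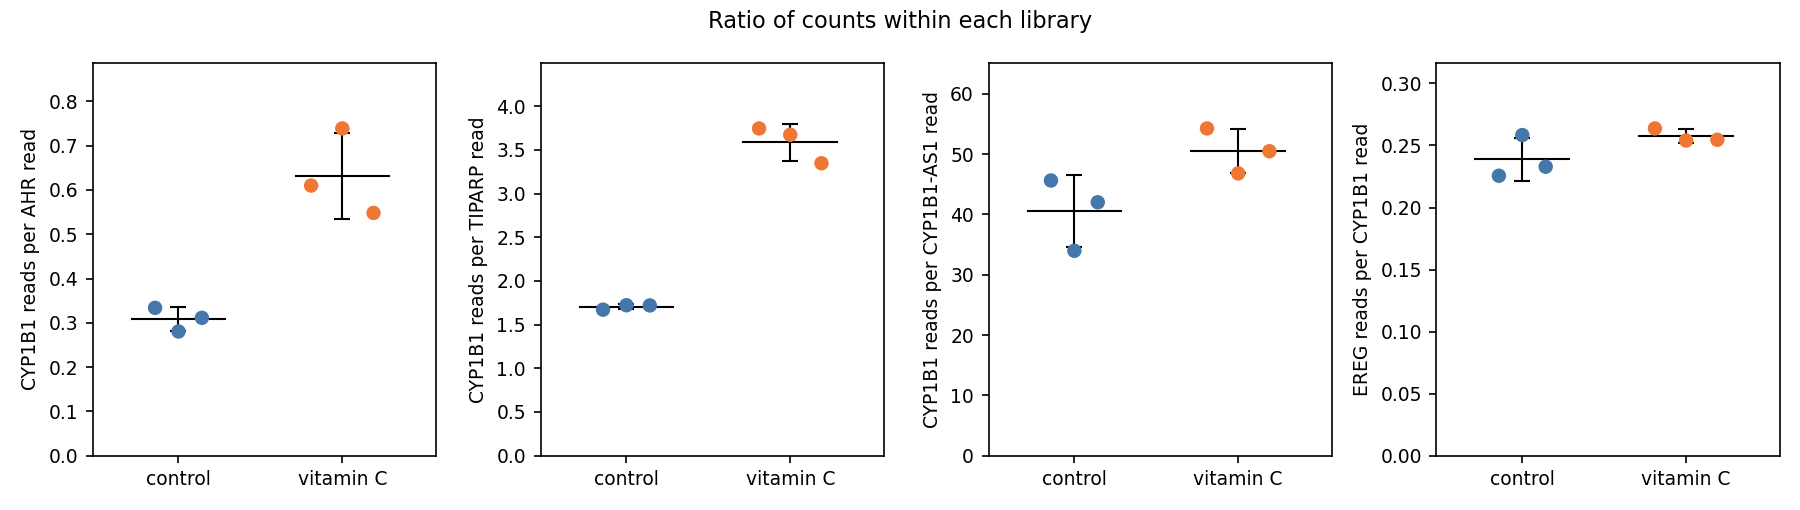
Points give the ratio of the raw counts of 2 genes in each library (y axes from 0), control in blue and vitamin C in orange, with the mean and SD of 3 libraries. CYP1B1 reads per AHR read rise from a mean of 0.309 to 0.632 and those per TIPARP read from 1.70 to 3.59, while EREG reads per CYP1B1 read lie at 0.239 and 0.257 with overlapping wells.

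Among 20 other genes known as AHR targets, 14 were tested, 4 were higher, 0 were lower and 10 did not pass the test. Over all tested genes, 3.60% were called higher and 3.48% lower. The median log2 fold change of the 14 was 0.22, against 0.02 for all tested genes. DESeq2 called 5, and it called 10.1% of all genes it gave an adjusted p. EREG (ENSG00000124882, chr4:74365145-74388749), which encodes the EGF receptor ligand epiregulin, was at 29.9, 30.0 and 27.3 CPM in control 1, 2 and 3 and at 61.5, 62.9 and 57.4 CPM in vitamin C 1, 2 and 3. Its treated wells all stood near 60 CPM and its control wells all near 29 CPM, a difference of 1.06 on the log2 scale (SE 0.08, edgeR adjusted p = 0.000236). AREG, for the related ligand amphiregulin, rose from 21.3 ± 1.93 to 32.3 ± 0.731 CPM (SD, n = 3 each), by 0.60 on the log2 scale (SE 0.09, edgeR adjusted p = 0.00909). NQO1, a quinone reductase that is a target of both AHR and NRF2, rose from 229 ± 3.58 to 307 ± 12.2 CPM (SD, n = 3 each, edgeR adjusted p = 0.0102). ABCG2, an efflux pump for drugs and porphyrins, rose from 8.36 ± 0.648 to 13.5 ± 2.37 CPM (SD, n = 3 each, edgeR adjusted p = 0.0222). EREG and AREG kept their calls whichever library was left out, NQO1 lost its call without control 2 (edgeR adjusted p = 0.058), and ABCG2 lost its call without control 1 (0.0648), control 2 (0.0883) or control 3 (0.0503). IL6, an inflammatory cytokine, had a log2 fold change of 0.61 and was called by DESeq2 (adjusted p = 0.0153) but not by edgeR (adjusted p = 0.0653). Log2 fold changes of others that did not pass were 0.30 for CYP2S1, 0.25 for STC2, 0.19 for CDKN1B, 0.18 for SOS1, -0.01 for NFE2L2, -0.03 for NEDD9, -0.11 for HES1 and -0.13 for SLC7A5. IL6 and these 8 genes were named after their values were seen. CYP1A2, a liver P450 of the same subfamily as CYP1A1, had 0 counts in every library.

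A GCGTG core stood in at least 1 promoter window of 12 of the 19 target genes that had one, and in those of all 4 genes called higher, EREG, AREG, NQO1 and ABCG2. ABCG2 had 5 windows, of which 3 held the core. Since 40.6% of all genes have such a core and some genes have several windows, these counts are descriptions of the letters.

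**Figure D4:**
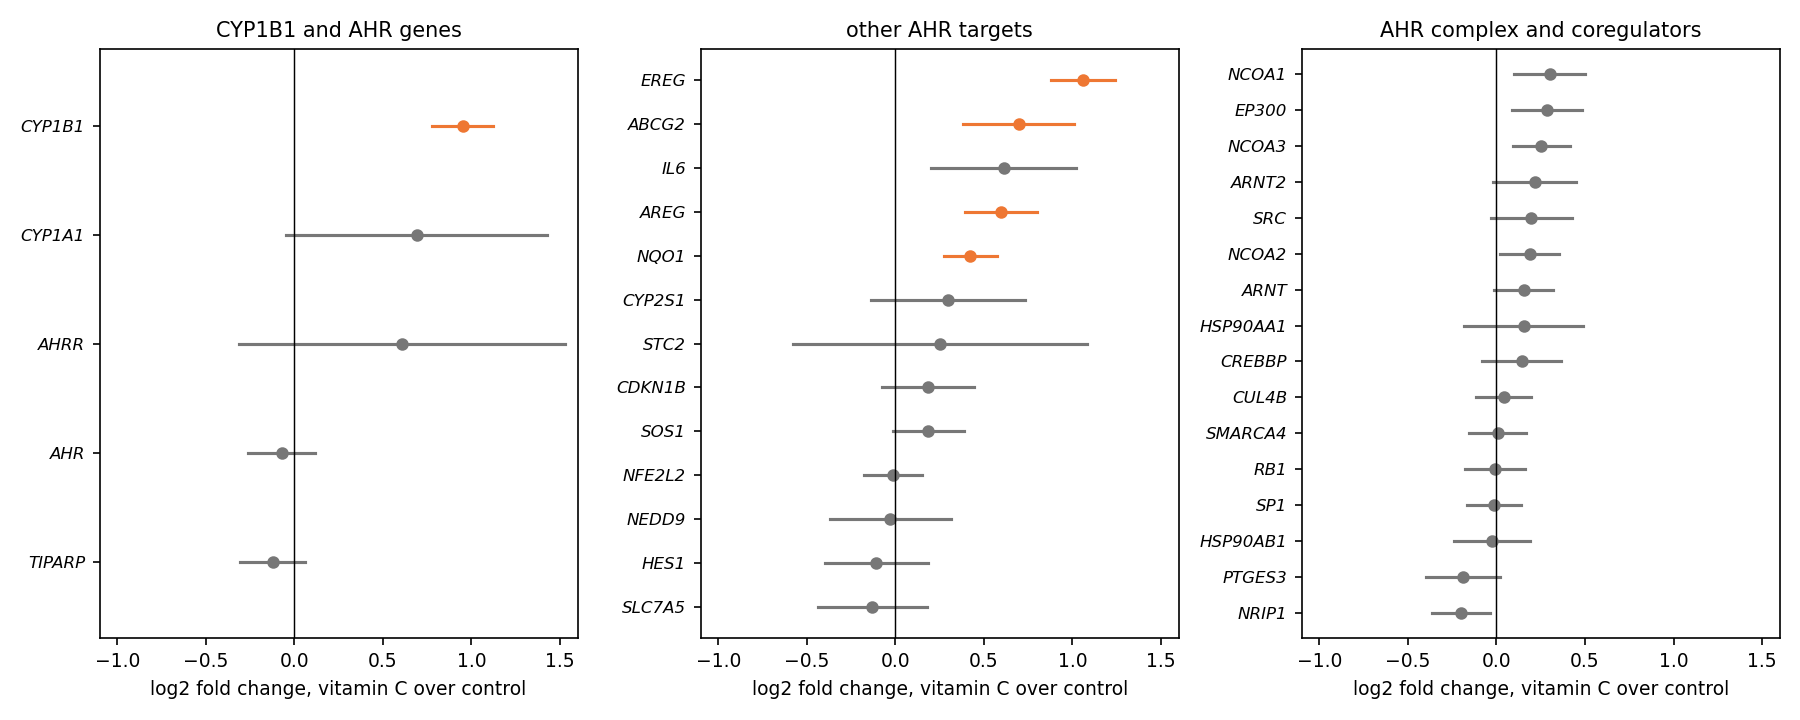
Points give the log2 fold change from edgeR (x axis, positive where vitamin C libraries were higher) and lines its 95% interval, for 5 CYP1B1 and AHR genes, 13 other AHR targets and 16 genes of the AHR complex, with genes of adjusted p under 0.05 in orange. CYP1B1 at 0.95, EREG at 1.06, ABCG2 at 0.70, AREG at 0.60 and NQO1 at 0.42 are the genes in orange, and none of the complex genes plotted is.

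No gene of the machinery that AHR works with was called over all 6 libraries. Of 17 genes for the cytosolic complex, the ARNT partners and the nuclear coregulators, all 17 were tested and 0 passed by edgeR or by DESeq2. Their median log2 fold change was 0.14. Over all genes given an adjusted p, edgeR called 7.08% and DESeq2 10.1%. At an unadjusted p under 0.05, edgeR had 4 higher and 1 lower of the 17. Among all tested genes 14.3% were higher, 13.1% were lower and 27.4% passed in either direction. Every vitamin C well lay above every control well for 7 of the 17 and below for 1. These shares were 15.7% and 16.6% over all tested genes. HSP90AA1 and HSP90AB1, the chaperones that hold AHR in the cytosol, were the most abundant, at 3286 ± 233 and 3654 ± 945 CPM and at 2376 ± 133 and 2335 ± 318 CPM in control and treated wells (SD, n = 3 each). ARNT, the partner of AHR on DNA, was at 42.4, 41.9 and 41.6 CPM in control 1, 2 and 3 and at 46.7, 44.8 and 48.5 CPM in vitamin C 1, 2 and 3. Its treated wells lay above its control wells, and its difference of 0.16 on the log2 scale did not pass (SE 0.08, edgeR adjusted p = 0.212). Without vitamin C 3, 5 of the 17 passed, all higher: CREBBP, EP300, HSP90AA1, NCOA1 and NCOA3. That omission also raised the number of genes called in the whole table, from 1080 to 1900. ARNT and those 5 genes, apart from HSP90AA1, were named after their values were seen.

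Within the bHLH-PAS family, the transcription factors to which AHR and ARNT belong, 9 of 14 genes were tested and 1 was higher. Over all tested genes, 3.60% were called higher and 7.08% in either direction. HIF1A, the oxygen-regulated subunit that also pairs with ARNT, rose from 842 ± 51.4 to 1368 ± 61.1 CPM (SD, n = 3 each), by 0.70 on the log2 scale (SE 0.08, edgeR adjusted p = 0.00156). It passed whichever library was left out. The other 8 did not pass, EPAS1, NPAS2, CLOCK and both BMAL genes among them.

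Enzymes that make or remove tryptophan-derived AHR ligands were mostly at low levels. Of 12 genes, 5 were tested, 1 was higher, 0 were lower and the median log2 fold change was -0.07. The share called over all tested genes was 3.60% higher and 7.08% in either direction. KYNU, the kynureninase that cleaves kynurenine, was at 6.39 ± 0.951 CPM in control wells and 9.45 ± 0.806 CPM in treated wells (SD, n = 3 each), or 0.56 on the log2 scale (SE 0.15, edgeR adjusted p = 0.0442). Its call was lost under 5 of the 6 omissions of a library and was kept only without vitamin C 3 (edgeR adjusted p = 0.0353), with a value of 0.134 without control 1. The enzymes that open the tryptophan ring were near or at 0, with IDO1 at 0.157 and 0.167 CPM, TDO2 at 0.0504 and 0.0582 CPM, and IDO2 at 0 counts throughout.

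In the rest of the P450 system, 1 gene was called in each of 3 lists, where 7.08% of all tested genes were called, and each had a smaller fold change than CYP1B1. Of 36 other P450 genes, 10 were tested, 1 was higher, 0 were lower and 10 had no count in any library. CYP4V2, a fatty acid hydroxylase, was at 47.9 ± 2.72 and 58.8 ± 3.16 CPM (SD, n = 3 each), or 0.30 on the log2 scale (SE 0.08, edgeR adjusted p = 0.0488). Its call was lost whichever library was left out (edgeR adjusted p from 0.0594 to 0.161). CYP20A1, an orphan P450, was the most abundant of them in CPM, at 112 ± 2.00 and 123 ± 7.77 (SD, n = 3 each, edgeR adjusted p = 0.27). Of 6 genes that pass electrons to P450 enzymes or bind them, CYB5R3, the cytochrome b5 reductase, was higher (89.1 ± 10.5 and 113 ± 2.70 CPM, SD, n = 3 each, log2 fold change 0.35, SE 0.09, edgeR adjusted p = 0.0425), and it lost its call without control 1 (0.134), control 2 (0.108), vitamin C 1 (0.105) or vitamin C 2 (0.087). POR, the reductase that CYP1B1 itself depends on, was at 18.3 ± 1.15 and 21.3 ± 2.83 CPM (SD, n = 3 each, edgeR adjusted p = 0.229). Of 13 genes that handle oestrogens and the catechols that CYP1B1 makes from them, 7 were tested, and NQO1 was the 1 called. POR was named after its values were seen.

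The genes whose levels followed CYP1B1 most closely over the 6 libraries were SGCB, EREG, CRYBG1, NTNG2 and CTPS2. Likeness is the Pearson correlation of log2 CPM with CYP1B1 over 6 libraries, among the 10281 other genes that averaged 100 counts or more, and it is a description because the libraries form 2 separate groups and share their scaling. The values for these 5 genes, in that order, were 0.9922, 0.9921, 0.992, 0.9906 and 0.9901, and 80 genes reached 0.95 while 122 reached -0.95 or below. After the group means were subtracted the 5 genes had correlations of 0.568 to 0.863, from 6 points. Their choice by correlation over the same libraries favours positive values here. The highest correlations within groups, up to 0.999, belonged to other genes. For each CYP1B1 read, control 1, 2 and 3 held 0.226, 0.258 and 0.233 EREG reads, and vitamin C 1, 2 and 3 held 0.264, 0.254 and 0.255. This nearly constant ratio follows from the likeness and the similar fold changes of EREG and CYP1B1, and is no separate result. CRYBG1, a crystallin-domain protein, rose by 0.58 on the log2 scale (edgeR adjusted p = 0.00328) and SGCB, a subunit of the sarcoglycan complex, by 0.26 (edgeR adjusted p = 0.0439). NTNG2, a netrin-family membrane protein, and CTPS2, a CTP synthase, had log2 fold changes of 0.38 and 0.23 and did not pass (edgeR adjusted p = 0.103 and 0.0966). Of the members, AHR had a correlation of -0.43 with CYP1B1 and TIPARP one of -0.48. With the group means subtracted, that of AHR was -0.48 and that of TIPARP turned to 0.79, from 6 points.

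**Figure D5:**
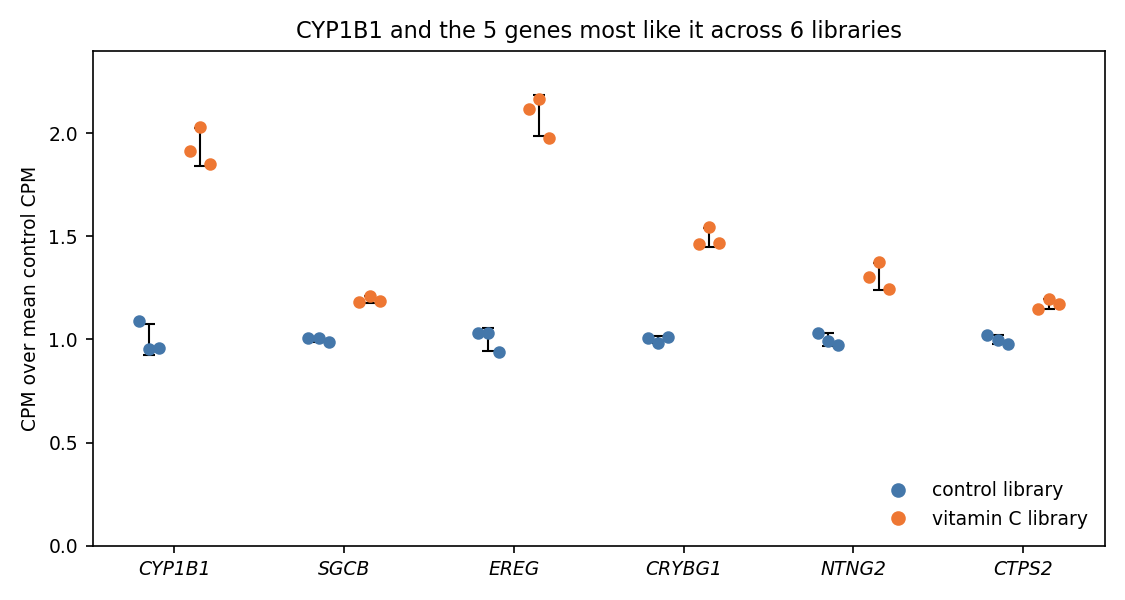
Points give the CPM of each gene in each library divided by its own mean over 3 control libraries (y axis from 0), control in blue and vitamin C in orange, with bars for the mean ± SD of a group. CYP1B1 and EREG both lie near 2 in treated libraries, while SGCB, CRYBG1, NTNG2 and CTPS2 keep the same order of groups with smaller steps.

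The labelled cell line was checked against markers. VIM, CD44 and AXL, mesenchymal genes that this line expresses strongly, were at 1276 ± 45.3, 962 ± 41.7 and 889 ± 16.9 CPM in control wells (SD, n = 3 each), and the oestrogen receptor gene ESR1 had 0 counts in every library. Markers of other cell types (9 genes of leukocytes, endothelium, fibroblasts, smooth muscle and fat) summed to 7.52 to 11.7 CPM in control and 15.1 to 17.1 CPM in vitamin C libraries, and so moved with the groups. PECAM1, from 0.958 to 2.04 CPM, was the 1 of them called (edgeR adjusted p = 0.0439) and lost its call whichever library was left out (edgeR adjusted p from 0.0557 to 0.136) and with DESeq2 (adjusted p = 0.0704), PDGFRB made up most of the sum at 8.14 and 12.4 CPM, DCN and ADIPOQ had 0 counts throughout, and PTPRC, CD3E, CD68 and CDH5 were under 0.4 CPM in every library. The 6 luminal and receptor markers summed to 44.4 to 48.1 and 57.1 to 59.8 CPM, of which ERBB2 gave most, and 0 of them were called by edgeR or DESeq2, with all 3 that were tested higher at an unadjusted p under 0.05, a threshold that 14.3% of all tested genes passed upward. The part of these marker shifts in the CYP1B1 result was not tested.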

How the data were processed

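RNA-seq of 6 libraries of MDA-MB-231 cells was analysed, 3 per group as labelled. The submitters' processing notes name CASAVA 1.4, Trim Galore, STAR and build hg38. The values the authors deposited are raw counts per Ensembl gene without normalization. No source used here gives the STAR version, the annotation release or the strand setting. In each file 4 summary lines (50.6% to 69.7% of read pairs) were left out. A table of the whole series held the same counts.

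Symbols and positions came from GENCODE 44 on GRCh38 (56558 of 60675 identifiers, at least 99.7% of counts in each library). Tests were run in R 4.3.3 with edgeR 4.0.16 (TMM factors, filterByExpr with a minimum count of 10, quasi-likelihood F test), with DESeq2 1.42.0 and limma-voom (limma 3.58.1) as alternatives. The script was tested on simulated data. The SE is the log2 fold change over the root of F. The biological coefficient of variation was 9.40%. Between replicates of a group, chi-square per degree of freedom was 4.99 to 24.3, above sampling noise. For likeness, a prior count of 2 was added before log2 CPM. Poisson intervals and floors cover counting error only.

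The members and the gene lists were chosen with earlier results of these data known, so no p-value was adjusted over a list alone and no set test was run. Named were all members, genes overlapping them, the 5 genes most like CYP1B1, and in each list up to 4 called genes with the smallest p, or the 2 most abundant where none was called. For the P450 list the most abundant gene was named too. The values of 3 listed genes are not reported here, though list counts and medians include them. Alternatives were other factors (RLE, upper quartile), no filter, other tools, the replicate number as a block, leaving out each library, another gene length, and likeness within groups. Promoter windows came from RefSeq and primer sequences from the study's supplement.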

Additional observations from a re-analysis of the deposited data

How the results depend on the processing

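CYP1B1 kept its direction and its call under every alternative run. The direction of AHR reversed without vitamin C 2 (log2 fold change 0.00316), and CYP1A1, AHRR and TIPARP kept their direction and did not pass in any of them (DESeq2 gave AHRR no adjusted p). Without each library in turn, log2 fold changes ranged from 0.91 to 1.01 for CYP1B1, 0.27 to 0.99 for CYP1A1, -0.14 to 0.00 for AHR, 0.30 to 0.92 for AHRR and -0.17 to -0.05 for TIPARP, and the difference in ALDH3A1 level from 0.128 to 0.223 CPM. SERPINB2, at 0 counts, gave no value. The count of genes called was 2245 without the filter, and ranged from 128 (without control 1) and 142 (without control 2) to 1900 (without vitamin C 3) as libraries were left out, against 1080 with all. Over these omissions, called list members ranged from 0 to 5 for the AHR complex and 2 to 6 for other AHR targets. They ranged from 0 to 1 for kynurenine enzymes, 1 to 2 for the bHLH-PAS family and 0 to 2 for P450 redox partners. Other P450 genes and aldehyde dehydrogenases each had 0 to 0, and oestrogen metabolism had 0 to 1. PARP enzymes had 0 to 2, and serpins and plasminogen activators had 0 to 2. Without vitamin C 3, 5 of the 6 called AHR targets were higher, and the rest were lower. In the same fit, 1 of the 2 called P450 redox partners was higher. The AHR complex had 1 call with upper-quartile factors and 1 without the filter, and P450 redox partners had 2 without the filter. Other P450 genes had 0 with RLE factors, without the filter, with DESeq2 and with limma-voom. PARP enzymes had 3 with upper-quartile factors, 3 without the filter and 1 with limma-voom. Serpins and plasminogen activators had 3 without the filter. The lowest correlation of the 5 genes most like CYP1B1 fell from 0.9901 to 0.568 with group means subtracted. The cause of these shifts was not tested. AHRR, CYP1A1 and ALDH3A1 rest on at most 40 counts per library.

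Libraries with the same replicate number did not deviate together (correlations -0.016, -0.0556 and -0.0452), so the number was not treated as a pairing. With a replicate block CYP1B1 had a log2 fold change of 0.95 (edgeR adjusted p = 0.000459), 731 genes were called, and calls were 0 for kynurenine enzymes, P450 redox partners, other P450 genes and aldehyde dehydrogenases and 1 each for PARP enzymes and for serpins and plasminogen activators. None of the 6 libraries correlated best with its own number.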

Other observations

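The lists for the families of ALDH3A1 and TIPARP, and that of serpins and plasminogen activators, each had 2 called genes. Over all tested genes, 7.08% were called. Of 18 other aldehyde dehydrogenases, 15 were tested, 2 were higher and 0 were lower, and the median log2 fold change was -0.08. ALDH1A3, which makes retinoic acid, was at 19.6 ± 1.13 and 25.5 ± 1.58 CPM (SD, n = 3 each, log2 fold change 0.38, edgeR adjusted p = 0.0372). ALDH3A2, which oxidizes fatty aldehydes and neighbours ALDH3A1 on chromosome 17, was at 43.6 ± 3.84 and 55.1 ± 4.27 CPM (SD, n = 3 each, log2 fold change 0.34, edgeR adjusted p = 0.0475). Both lost their calls whichever library was left out, with edgeR adjusted p from 0.0561 to 0.111 and from 0.0667 to 0.164.

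Of 16 other enzymes of the PARP family, to which TIPARP belongs, 15 were tested, 2 were higher and 0 were lower. PARP10, a mono-ADP-ribosyltransferase, rose from 9.46 ± 0.902 to 13.9 ± 1.00 CPM (SD, n = 3 each, log2 fold change 0.56, edgeR adjusted p = 0.0252), and lost its call without control 1 (0.0993) or control 2 (0.079). PARP14 was at 130 ± 6.29 and 158 ± 10.8 CPM (SD, n = 3 each, log2 fold change 0.28, edgeR adjusted p = 0.0488) and kept its call only without vitamin C 3 among the omissions of a library (edgeR adjusted p from 0.0236 to 0.167 over all of them).

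Of 17 listed genes of clade B serpins and the plasminogen activator system, 9 were tested, 1 was higher and 1 was lower. SERPINB6, an intracellular protease inhibitor, was at 99.2 ± 7.95 and 124 ± 5.10 CPM (SD, n = 3 each, log2 fold change 0.32, edgeR adjusted p = 0.0388), and PLAT, tissue plasminogen activator, fell from 229 ± 11.6 to 180 ± 4.76 CPM (SD, n = 3 each, log2 fold change -0.35, edgeR adjusted p = 0.0225). Each kept its call in 2 of 6 omissions of a library, with edgeR adjusted p from 0.0303 to 0.137 and from 0.0172 to 0.0857.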
